A study of Mus musculus with 12 samples.

Results

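Collagen genes were followed in RNA from the developing mouse heart region at 4 embryonic stages. The members are the gene intervals of the deposited count table with a collagen symbol of the form Col, type number, a, chain number, and at least 100 counts summed over the 12 libraries. There were 44 such intervals among 48709 in the table, and all 44 passed the filter on low counts that was applied before testing. The count rule removed none: the lowest summed count was 260 (Col6a4), followed by 454 (Col5a3) and 478 (Col6a5). The groups were cardiogenic regions dissected from Mus musculus embryos at E8, E8.5, E9.5 and E14 (E, embryonic day), with 3 total RNA libraries each. No treatment, genotype, strain, sex or pooling of embryos is given in the sources used here, and all groups are described alike except for stage. No label says that the libraries of a stage came from separate litters, so the p-values cover no more than the scatter of these samples, some or all of which may be technical.

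Collagens are secreted or membrane proteins whose chains, called alpha chains, wind around each other into a stiff helix. Fibrillar collagens (types I, II, III, V, XI, XXIV and XXVII) form or nucleate the fibrils that bear tension. Type IV collagens form the network of basement membranes, type VI forms beaded filaments close to cells, and the fibril-associated collagens with interrupted helices (FACIT) sit on fibril surfaces. In the early heart the matrix lies mainly as basement membranes and as a jelly between myocardium and endocardium, and later, fibroblasts and valve cells deposit fibrils rich in types I and III.

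The libraries held 56574386 to 122785175 counts. Small structural RNA took 16.6 to 24.1% of them, and globin genes took 1.91 to 6.03% at E14 against 1.07% or less earlier. Collagens made up 0.183 to 0.211% of all counts at E9.5, the lowest stage, 0.351 to 0.377% at E14, the highest, and 0.232 to 0.274% before. Cardiomyocyte markers were abundant in every library (summed over 8 genes, 12968 to 24046 CPM, read counts scaled to a common library size with TMM factors). The library E8.5 replicate 3 stood apart: 10 visceral endoderm markers summed to 1711 CPM in it, against 158 and 60.6 CPM in the other E8.5 libraries and 25.3 to 26.0 CPM at E8. It also differed in a principal component analysis, which orders libraries by their main differences over all genes tested. On component 3 it was at 31.2, the E8 libraries at 15.9 to 36.1 and the other E8.5 libraries at -43.1 and -63.1. On component 4 this library was at 77.4, and all others were at -32.5 to 14.9. Calls of collagens between E8.5 and its neighbouring stages are therefore given with and without it where they change. In bulk RNA, fewer cells of a type and less RNA per cell cannot be told apart.

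The make-up of the collagen RNA turned over between E8 and E14. At E8 the reads lay mostly in Col2a1 (23.1 ± 0.733% of all collagen counts, SD, n = 3), the type IV pair Col4a1 and Col4a2, and Col18a1 (16.3 ± 0.0648%). At E14 Col3a1 alone took 29.6 ± 1.09%, and Col2a1 took 0.207 ± 0.0128%. By class, the 11 fibrillar genes held 38.4 ± 0.694% of the collagen counts at E8, 36.6 ± 1.29% and 41.3 ± 1.74% in the next 2 stages, and 57.4 ± 0.667% at E14. The share of the 6 type IV genes went from 35.2 ± 0.0689% at E8 to 24.8 ± 0.452% at E14, while their summed level was 896 ± 39.7 and 968 ± 18.9 CPM. The 6 type VI genes went from 0.679 ± 0.0219% to 5.65 ± 0.0642% of the collagen counts, and the 2 multiplexins (types XV and XVIII) from 16.3 ± 0.0642% to 4.69 ± 0.225%. All 44 genes together summed to 2546 ± 118 CPM at E8, 2403 ± 181 and 1942 ± 69.9 in the next 2 stages, and 3895 ± 56.5 at E14, so the total was lowest at E9.5 and highest at E14.

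**Figure D1:**
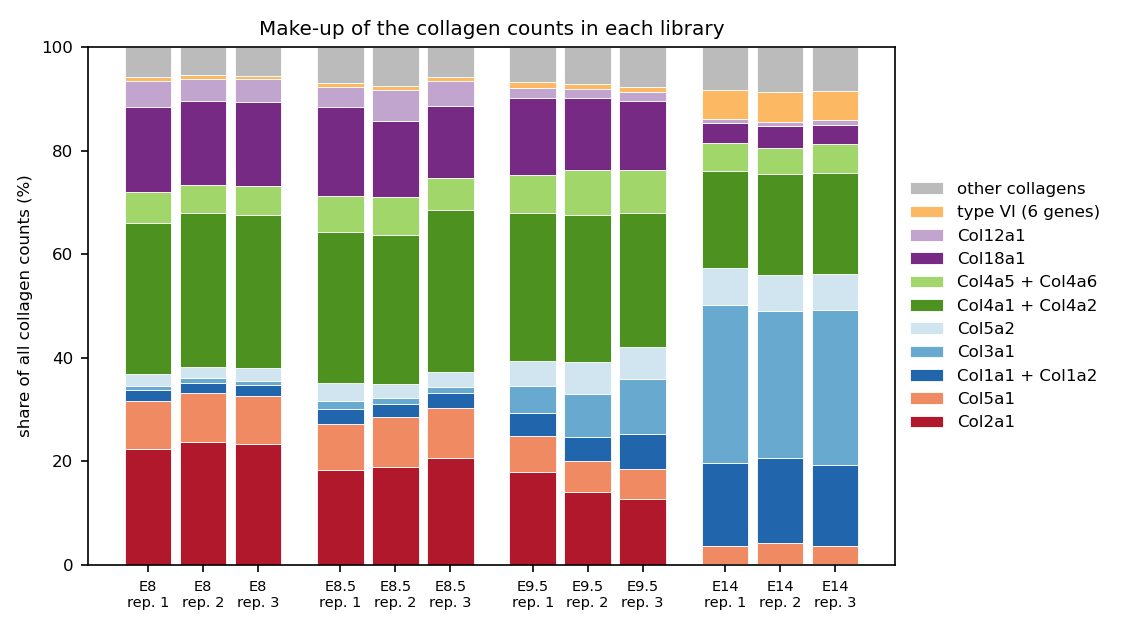
Share of all collagen counts (%, vertical axis) taken by named genes and groups in each of the 12 libraries, ordered by stage. Col2a1 fills the base of every bar at E8, E8.5 and E9.5 and is not visible at E14, where Col3a1 takes the widest band.

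Levels were compared between genes per kilobase of annotated exon, and then per kilobase of the whole interval. The sources used here do not say whether reads in introns were counted, so neither order is preferred. At E8 Col4a1 stood at 68.2 ± 4.52 CPM per kb of exon, Col2a1 at 63.8 ± 4.94, Col18a1 at 59.0 ± 2.51 and Col4a2 at 36.3 ± 1.11 (SD, n = 3). The genes were measured in the same libraries, so the SD between libraries does not measure the gap between 2 genes. The order of Col4a1, Col2a1 and Col18a1 was not tested, and Col4a2 lay below all 3. At E14 the order was Col3a1 (117 ± 3.03 CPM per kb of exon), Col4a1 (66.9 ± 0.821), Col4a2 (38.1 ± 2.97), Col1a2 (33.1 ± 0.501) and Col1a1 (32.7 ± 4.44). The means of the last pair lay close together, and their order was not tested. Where counts are divided by the whole interval, introns included, Col2a1 ranked first at E8 and Col3a1 first at E14. The rest of the E14 order then changed. Col1a1 (12.8 ± 1.73 CPM per kb of interval) and Col1a2 (11.2 ± 0.169) ranked above Col4a1 (4.36 ± 0.0536) and Col4a2 (1.85 ± 0.144).

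The test was edgeR's quasi-likelihood F-test on the counts, with Benjamini-Hochberg adjustment over 28846 genes, and a gene was called at an adjusted p under 0.05. Log2 fold changes are given with their standard error (SE), and levels with the SD of 3 libraries. From E8 to E8.5, 1.18% of all genes tested were called (0.891% higher and 0.291% lower), and 2 of the 44 collagens were, both higher (Col1a1 and Col6a3). The median log2 fold change of the collagens was 0.11, against 0.02 over all genes tested. From E8.5 to E9.5, where 37.0% of all genes were called (18.4% higher and 18.5% lower), 9 collagens rose and 13 fell, with a median of -0.19 against -0.03. From E9.5 to E14, where 50.0% of all genes were called (25.4% higher and 24.6% lower), 29 collagens rose and 5 fell, and their median was 1.05 against 0.01. Over the whole span, E14 against E8, 60.7% of all genes were called (31.5% higher and 29.2% lower), and 30 collagens were higher and 8 lower, with a median of 1.33 against 0.04. E9.5 against E8, where 24.8% of all genes were called (13.6% higher and 11.3% lower), gave 12 higher and 12 lower. The test over all 4 stages called 41 of 44 collagens against 72.3% of all genes, and the exceptions were Col11a2, Col5a3 and Col9a3. These comparisons share libraries and are not independent of each other. The shares of all genes given here are also those to set beside the counts of called marker genes below.

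The split from E8.5 to E9.5 depended on the scaling and on E8.5 replicate 3. With library offsets adjusted for gene length, 13 collagens rose and 9 fell, beside 4706 and 5425 of 28846 genes. With small RNA and globin genes left out, 12 rose and 11 fell, beside 5378 and 4718 of 26681 genes. Without E8.5 replicate 3, 12 rose and 14 fell, beside 6968 and 6047 of 29662 genes. Col6a1, Col9a3 and Col11a1 were then called higher as well, and Col4a3, Col10a1 and Col28a1 lower (adjusted p = 0.00738 to 0.0468, edgeR). The calls of Col4a1 and Col23a1 were lost. The calls from E8 to E8.5 were the least stable. Without E8.5 replicate 3 they numbered 10 (6 higher and 4 lower), at a background of 29.9% of all genes called. Col1a1, Col6a3, Col10a1, Col13a1, Col19a1 and Col27a1 were then higher, and Col2a1, Col4a1, Col9a2 and Col17a1 lower. At an unadjusted p under 0.05, edgeR gave 10 higher and 3 lower with all libraries, or 29.5% of the collagens beside 28.1% of all genes. DESeq2 called 7 higher and 1 lower, or 18.2% of the collagens beside 17.9% of the 24297 genes to which it gave an adjusted p. Both shares were near those of all genes.

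**Figure D2:**
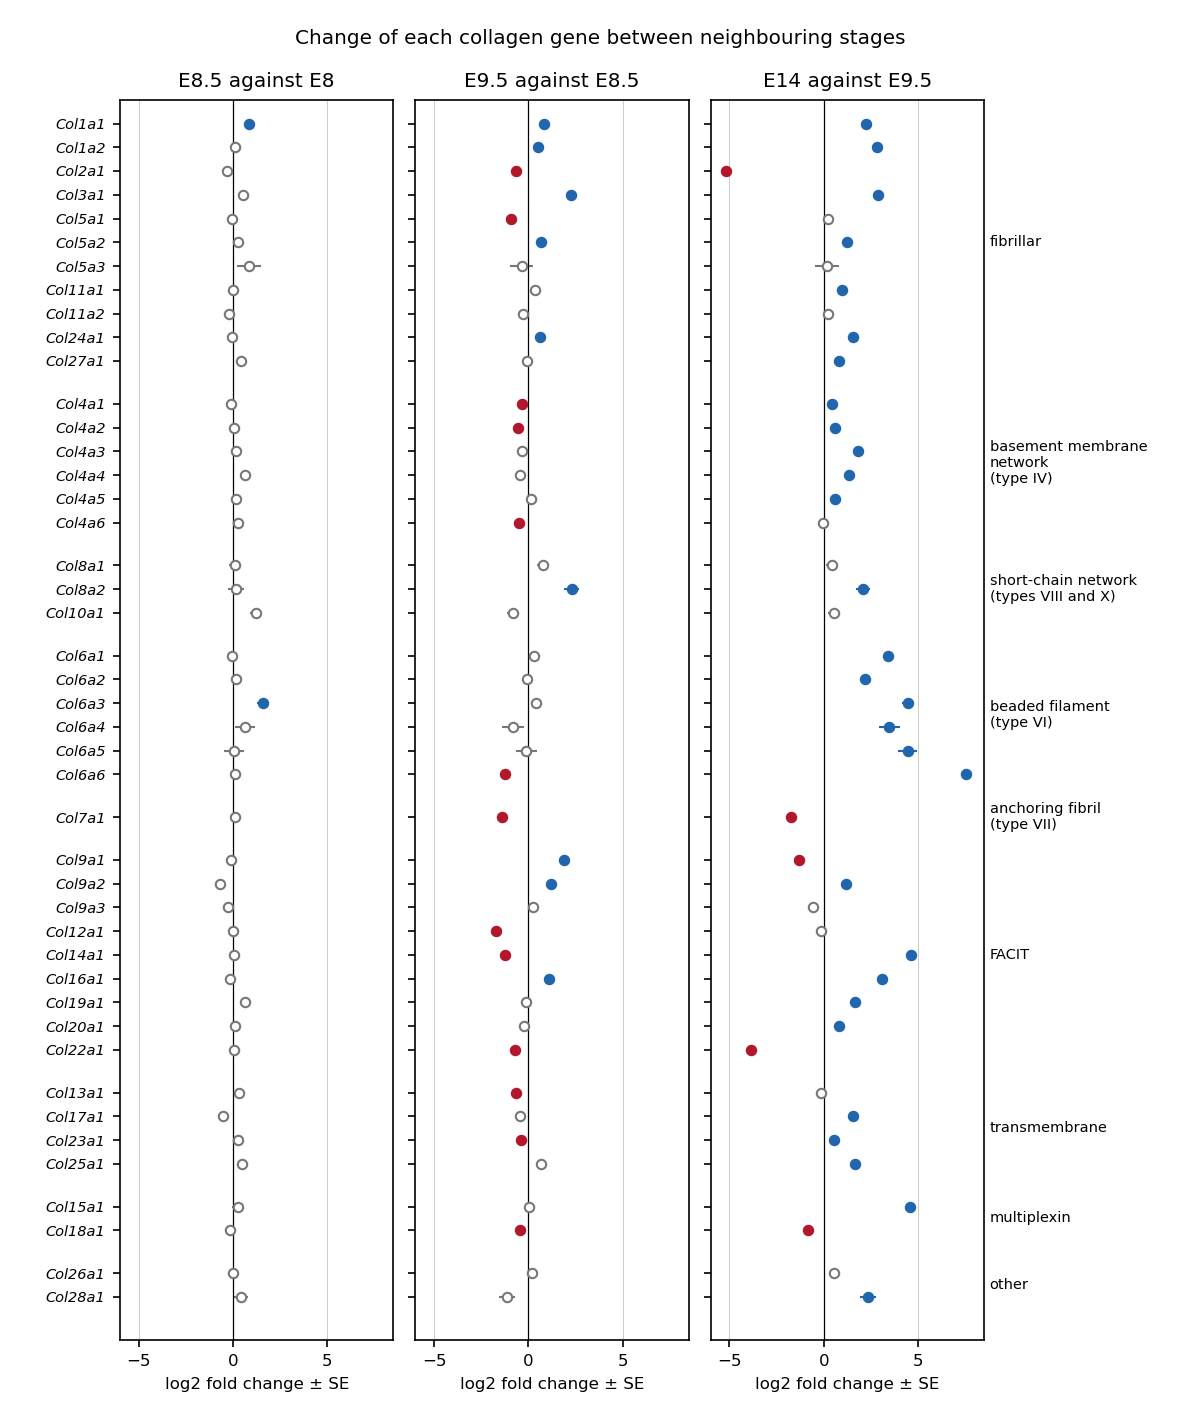
Log2 fold change (horizontal axis, with its standard error) of each of the 44 collagens, by class, from E8 to E8.5 (left), E8.5 to E9.5 (middle) and E9.5 to E14 (right). Filled points passed the test at an adjusted p under 0.05 (blue higher, red lower) and open points did not. The left panel holds 2 filled points, and the right panel holds 29 blue and 5 red ones.

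Among the fibrillar collagens, Col2a1 fell while Col3a1, Col1a1, Col1a2 and Col5a2 rose. From E9.5 to E14, 7 of the 11 fibrillar genes rose and 1 (Col2a1) fell, where 25.4% of all genes rose and 24.6% fell. From E8.5 to E9.5, 5 rose (Col1a1, Col1a2, Col3a1, Col5a2 and Col24a1) and 2 fell (Col2a1 and Col5a1). Of all genes, 18.4% rose and 18.5% fell in that interval. Col2a1 (chr15:97975602-98004695, GRCm38) encodes the main collagen of cartilage, which the notochord and several embryonic epithelia also make. It stood at 542, 632 and 595 CPM for the E8 libraries, 404, 467 and 524 for E8.5, 364, 267 and 246 for E9.5 and 7.59, 8.75 and 7.89 for E14. The ranges of the 4 stages did not overlap, and each stage lay below the one before it. From E8 to E8.5 its log2 fold change of -0.34 ± 0.14 (SE) did not pass the test (edgeR, adjusted p = 0.147). It fell by 0.67 ± 0.14 on the log2 scale between E8.5 and E9.5 (adjusted p = 0.00426, edgeR) and by 5.17 ± 0.17 between E9.5 and E14 (adjusted p = 2.68e-09, edgeR), the largest fall of any collagen in that interval, and its mean at E8 was 73.0 times that at E14. Of 8 notochord and cartilage markers other than collagens, 7 were in the table, and they summed to 5.24 to 5.64 CPM at E8 and 1.96 to 2.25 CPM at E14. In edgeR, 3 of the 6 that passed the filter on low counts were lower at E14 than at E8 (Shh, Foxa2 and Matn3) and 2 higher: Comp, a cartilage matrix protein, went from 0.0844 ± 0.0372 CPM to 1.13 ± 0.0457 CPM (SD, n = 3) and Matn1 from 0.0763 ± 0.0326 CPM to 0.174 ± 0.0370 CPM. Their part in the level of Col2a1 was not tested.

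Col3a1, which forms the fine fibrils of compliant tissue together with type I, moved the opposite way. It stood at 21.4, 23.3 and 23.2 CPM for the E8 libraries, 34.4, 30.3 and 32.2 for E8.5, 105, 158 and 203 for E9.5 and 1183, 1123 and 1151 for E14. Every stage lay above the one before it, with no overlap. Its log2 fold change was 0.51 ± 0.18 (SE) from E8 to E8.5, which did not pass (edgeR, adjusted p = 0.095), and it rose by 2.27 ± 0.18 between E8.5 and E9.5 (adjusted p = 2.24e-05, edgeR) and by 2.89 ± 0.19 between E9.5 and E14 (adjusted p = 2.42e-07, edgeR). At E14 its mean was 51.0 times that at E8. The gene lies at chr1:45311538-45349706 on the plus strand of GRCm38, beside Col5a2 at chr1:45374321-45503282 on the minus strand. The 250 bases before its RefSeq start (GRCm38.p6, chr1:45311288-45311537, plus strand) are shown because this gene became the leading collagen, with the letters TATAAA in capitals, whose first base lies 117 bases before the start.
Col3a1 promoter: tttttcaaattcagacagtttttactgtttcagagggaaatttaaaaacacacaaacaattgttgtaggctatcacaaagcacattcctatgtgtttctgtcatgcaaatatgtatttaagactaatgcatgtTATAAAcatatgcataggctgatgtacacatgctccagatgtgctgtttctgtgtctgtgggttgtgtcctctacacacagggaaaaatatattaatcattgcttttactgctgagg

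The chains of type I, the main fibril of bone, skin and scar, rose as well. Col1a1, the more numerous chain of the type I molecule, stood at 13.2, 14.6 and 14.2 CPM for the E8 libraries, 27.7, 27.5 and 20.4 for E8.5, 41.8, 34.7 and 57.7 for E9.5 and 206, 247 and 191 for E14. Its stages did not overlap. It rose by 0.85 ± 0.18 (SE, log2) from E8 to E8.5 (adjusted p = 0.0492, edgeR), 0.83 ± 0.18 from E8.5 to E9.5 and 2.26 ± 0.18 between E9.5 and E14 (adjusted p = 0.0043 and 1.5e-06, edgeR). The first of these calls lay close to the threshold and was lost under 16 of the 21 alternative settings, among them RLE scaling (adjusted p = 0.0513, edgeR) and leaving out any E8 or E14 library, E8.5 replicate 1 or 2, or E9.5 replicate 1 or 2 (0.77 to 0.88, adjusted p = 0.0533 to 0.217). Col1a2, the partner chain, stood at 34.9, 39.7 and 38.8 CPM for the E8 libraries, 35.4, 35.7 and 51.4 for E8.5, 48.5, 50.8 and 73.9 for E9.5 and 418, 406 and 412 for E14. Its values overlapped between neighbouring stages up to E9.5, while the E14 libraries lay above all others. Col1a2 rose by 2.83 ± 0.18 between E9.5 and E14 (adjusted p = 2.26e-07, edgeR). Its call between E8.5 and E9.5 (0.50 ± 0.17, adjusted p = 0.0368, edgeR) was lost when E9.5 replicate 3, the highest library, was left out (0.28, adjusted p = 0.179), and also without E8 replicate 2 or 3 and E8.5 replicate 1 or 2 (adjusted p = 0.0505 to 0.127).

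Type V collagen starts fibrils and limits their width, and its 2 main chains moved apart. Col5a2 stood at 57.6, 60.2 and 59.8 CPM for the E8 libraries, 74.7, 67.9 and 71.9 for E8.5, 100.1, 117 and 121 for E9.5 and 273, 269 and 267 for E14, with no overlap between any stages. Col5a2 rose by 0.66 ± 0.08 from E8.5 to E9.5 and by 1.26 ± 0.08 between E9.5 and E14 (adjusted p = 0.000175 and 2.05e-07, edgeR). Col5a1 stood at 227, 248 and 239.7 CPM for the E8 libraries, 196, 239 and 246 for E8.5, 138, 112 and 109 for E9.5 and 133, 159 and 135 for E14. The E8 and E8.5 libraries overlapped each other and lay above all later ones, and the E9.5 and E14 libraries overlapped as well. Col5a1 fell by 0.92 ± 0.12 on the log2 scale between E8.5 and E9.5 (adjusted p = 0.000233, edgeR), and the change from E9.5 to E14 (0.25 ± 0.12) did not pass the test (adjusted p = 0.0944, edgeR), though it passed without E9.5 replicate 1 (0.36, adjusted p = 0.0271). The third chain, Col5a3, stayed between 0.0995 and 1.02 CPM in all 12 libraries.

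Col11a1, the type XI chain that can join type V chains in early fibrils, stood at 6.67, 7.30 and 7.05 CPM for the E8 libraries, 6.16, 6.77 and 8.19 for E8.5, 7.38, 8.79 and 11.1 for E9.5 and 17.4, 18.0 and 17.2 for E14. Every E14 library lay above all others. Col11a1 rose by 0.94 ± 0.14 between E9.5 and E14 (adjusted p = 0.00014, edgeR). Col11a2 stayed between 0.986 and 1.92 CPM and passed no test in edgeR's fit of all 12 libraries. It passed for E9.5 against E8 with DESeq2, with only those stages in the fit and without E8.5 replicate 1 or 3, and for E9.5 against E8.5 without E8.5 replicate 1. Col24a1 and Col27a1, minor fibrillar chains, were at most 4.31 and 17.1 CPM, both highest at E14, and rose from E9.5 to E14 by 1.57 ± 0.19 and 0.80 ± 0.10 (adjusted p = 2.5e-05 and 4.32e-05, edgeR). The call of Col24a1 between E8.5 and E9.5 (0.60 ± 0.19, adjusted p = 0.0262, edgeR) was lost without E8.5 replicate 1 or 2 or E9.5 replicate 2 or 3 (adjusted p = 0.05 to 0.102). Markers of other cell types moved in the same stages. Of 8 fibroblast markers other than collagens, all were detected, and they summed to 165 to 173 CPM at E8, 172 to 209 and 160.1 to 199 in the next 2 stages, and 533 to 559 at E14. Among them Dcn went from 0.221 ± 0.0291 CPM at E8 to 73.1 ± 2.76 CPM at E14, and Postn from 5.42 ± 0.294 CPM to 308 ± 12.5 CPM. For E14 against E8, where 31.5% of all genes were higher and 29.2% lower, edgeR called 7 of the 8 higher and 1 lower. The lower one, Fbln1, a matrix protein, went from 116 ± 3.94 CPM to 56.1 ± 1.06 CPM. The 8 epicardial markers summed to 11.3 to 11.6 CPM at E8, 40.0 to 129 at E9.5 and, at E14, 189 to 212, and 8 cushion and valve markers to 1286 to 1444, 869 to 929 and 284 to 329. Vcan, at 1135 ± 75.7 CPM at E8 and 269 ± 24.6 CPM at E14, made up most of the cushion sum. Between E8.5 and E9.5, edgeR called 4 cushion markers higher (Msx1, Scx, Sox9 and Twist1) and 2 lower (Acan and Vcan), and for E14 against E8, 2 higher (Prrx1 and Sox9) and 5 lower. At E9.5 the epicardial sum was 40.0, 91.5 and 129 CPM in replicates 1, 2 and 3, and Col3a1 had its lowest and highest E9.5 values in the same libraries. This order was not particular to epicardial markers. Sums of 8 red blood cell markers (4267, 8146 and 10857 CPM) and of the visceral endoderm markers (10.9, 76.1 and 133 CPM) rose in it too. The endothelial sum (548, 518 and 487 CPM) and Col2a1 ran the other way. The part of these cells in the collagen changes was not tested.

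**Figure D3:**
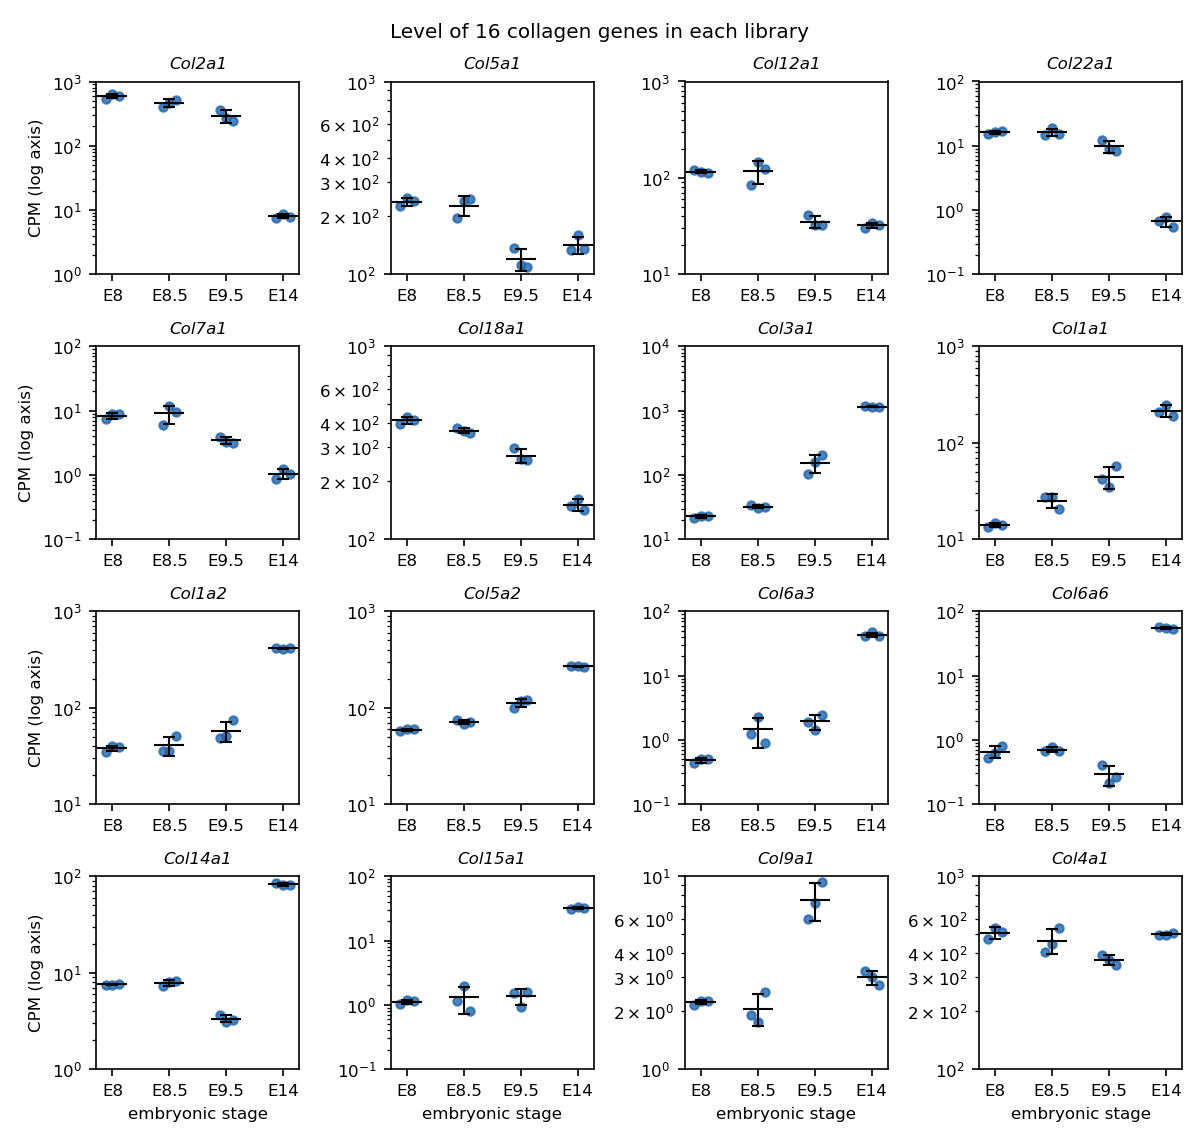
TMM-scaled CPM (vertical axis, log scale) of 16 collagens in the 12 libraries, by stage; points are libraries and the black bar is the mean ± SD of 3. Col2a1 drops to 7.59 to 8.75 CPM at E14, and Col3a1 is at 1123 to 1183 CPM.

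The type IV chains, which make the basement membrane under endothelium, epithelium and muscle, had a median log2 fold change of 0.48 for E14 against E8, beside 1.32 for the fibrillar genes and 0.04 for all genes tested. From E8.5 to E9.5, 3 of the 6 fell (Col4a1, Col4a2 and Col4a6), where 18.5% of all genes fell. From E9.5 to E14, 5 of 6 rose, where 25.4% of all genes rose. From E8 to E8.5 none of the 6 passed in edgeR (2 were higher without adjustment, at p under 0.05), and DESeq2 called 1 (Col4a4). The summed level of the 6 was 695 ± 35.8 CPM at E9.5, the lowest stage. Its E14 to E8 ratio was 0.11 on the log2 scale, and -0.0306 when scaled by total counts. Endothelial markers, 8 of 8 detected, summed to 538 to 544 CPM at E8, 487 to 548 at E9.5 and, at E14, 854 to 889.5, and 6 parietal endoderm markers, a cell type rich in type IV collagen, to 424 to 455, 422 to 424 and 821 to 870.5 CPM. Of these 6, edgeR called 3 higher (Lamb1, Sparc and Thbd) and 2 lower at E14 than at E8: Pth1r, and Lama1, a laminin chain, which went from 64.0 ± 2.15 CPM to 1.71 ± 0.289 CPM. Their part was not tested.

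Col4a1 and Col4a2 are the chains of the ordinary basement membrane network, and their genes lie head to head on chromosome 8 with starts that overlap by 22 bases. On the other strand, Gm15418 overlaps 5.32% of Col4a1, with 0.204 times its count. Gm15419 lies inside Col4a2, also on the other strand, with 0.191 times its count. The strand used in counting is not given in the sources used here, so the part of these transcripts in the values is not known. Col4a1 stood at 472, 538 and 517 CPM for the E8 libraries, 405, 444 and 538 for E8.5, 389.5, 369 and 346 for E9.5 and 493, 498 and 506 for E14. Col4a2 stood at 233, 248 and 240.0 CPM for the E8 libraries, 234, 265 and 252 for E8.5, 186, 165 and 153 for E9.5 and 237, 275 and 245 for E14. The E9.5 libraries lay below all others for both genes. Col4a1 rose by 0.44 ± 0.11 between E9.5 and E14 (adjusted p = 0.00444, edgeR) and Col4a2 by 0.59 ± 0.09 (adjusted p = 0.000214, edgeR). Their E14 against E8 values (-0.03 ± 0.11 and 0.07 ± 0.09) did not pass the test (adjusted p = 0.835 and 0.528, edgeR). For Col4a1, the fall between E8.5 and E9.5 (-0.33 ± 0.11, adjusted p = 0.03, edgeR) was lost without E8.5 replicate 3 (-0.18, adjusted p = 0.129) and under 9 other settings, among them omission of any E14 library or of E9.5 replicate 2 or 3 (adjusted p = 0.0614 to 0.117), and the rise to E14 was lost with length-adjusted offsets (0.24, adjusted p = 0.175).

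The minor chains are found in specialised basement membranes. Col4a5 and Col4a6 lie head to head on chromosome X, 1308 bases apart, and did not move together. Col4a5 stood at 88.3, 89.0 and 87.5 CPM for the E8 libraries, 97.6, 109 and 90.5 for E8.5, 101, 118 and 111 for E9.5 and 165, 158 and 169 for E14. Col4a6 stood at 57.9, 55.8 and 54.0 CPM for the E8 libraries, 57.6, 74.9 and 65.9 for E8.5, 49.4, 46.8 and 44.8 for E9.5 and 44.7, 45.5 and 48.5 for E14. The E14 libraries were the highest for Col4a5 and, together with E9.5, the lowest for Col4a6. Col4a5 rose by 0.58 ± 0.08 between E9.5 and E14 (adjusted p = 0.000109, edgeR), or 0.24 with length-adjusted offsets (adjusted p = 0.0523). Col4a6 fell by 0.49 ± 0.09 on the log2 scale between E8.5 and E9.5 (adjusted p = 0.00168, edgeR), or by 0.07 with length-adjusted offsets (adjusted p = 0.594), and its change to E14 of -0.02 ± 0.09 did not pass (adjusted p = 0.843). With length-adjusted offsets, Col4a6 fell in that last interval by 0.45 on the log2 scale (adjusted p = 0.00142, edgeR). The 2 windows before the RefSeq starts are shown because these neighbours diverged. Capitals mark GGGCGG on the reverse strand for Col4a6 (its first base 21 before the start; written CCGCCC) and CCAAT for Col4a5 (196 before the start; the window ends 34 bases short of it).
Col4a6 (chrX:141474077-141474326, minus strand): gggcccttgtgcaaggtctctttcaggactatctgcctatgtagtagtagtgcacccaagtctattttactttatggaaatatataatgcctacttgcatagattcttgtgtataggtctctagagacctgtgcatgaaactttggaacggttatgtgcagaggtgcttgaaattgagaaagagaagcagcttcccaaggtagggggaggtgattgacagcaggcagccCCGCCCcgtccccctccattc
Col4a5 (chrX:141475169-141475384, plus strand): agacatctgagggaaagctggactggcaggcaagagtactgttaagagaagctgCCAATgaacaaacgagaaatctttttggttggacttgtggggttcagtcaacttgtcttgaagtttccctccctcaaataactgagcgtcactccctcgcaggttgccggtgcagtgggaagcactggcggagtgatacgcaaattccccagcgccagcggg

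Col4a3 and Col4a4, chains of the kidney glomerulus and other thick membranes, were rare and rose together. Col4a3 stood at 0.888, 0.695 and 0.622 CPM for the E8 libraries, 0.901, 0.980 and 0.534 for E8.5, 0.591, 0.657 and 0.639 for E9.5 and 2.32, 2.11 and 2.21 for E14. Col4a4 stood at 1.34, 1.19 and 1.30 CPM for the E8 libraries, 1.41, 2.53 and 1.88 for E8.5, 1.60, 1.45 and 1.23 for E9.5 and 3.49, 3.91 and 3.30 for E14. All E14 libraries lay above all earlier ones for both genes. From E9.5 to E14 Col4a3 rose by 1.81 ± 0.23 and Col4a4 by 1.32 ± 0.20 (adjusted p = 4.06e-05 and 0.000156, edgeR). An opposite-strand transcript, C430014B12Rik, covers 22.3% of Col4a3 and had 3.41 times its count, and the strand used in counting is not given in the sources used here, so the value of Col4a3 is uncertain. The 71 bases between the starts of the pair, shown because both genes share them, held none of the 3 motifs searched.
Col4a4 and Col4a3 gap (chr1:82586850-82586920, GRCm38.p6, minus strand): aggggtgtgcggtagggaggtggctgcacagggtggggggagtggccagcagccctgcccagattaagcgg

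Type VI collagen, the beaded filament around muscle and mesenchymal cells, rose in all 6 members from E9.5 to E14, where 25.4% of all genes rose. The median log2 fold change of the 6 was 3.96, against 0.01 over all genes tested and 1.05 over all collagens. Col6a6, a long chain, had the largest rise of the interval among the collagens. It stood at 0.525, 0.635 and 0.798 CPM for the E8 libraries, 0.663, 0.777 and 0.669 for E8.5, 0.407, 0.215 and 0.263 for E9.5 and 56.2, 54.6 and 53.1 for E14. Every E14 library lay far above the earlier ones, which were all below 1 CPM. Col6a6 rose by 7.55 ± 0.19 (adjusted p = 4.45e-10, edgeR), after a fall of 1.27 ± 0.21 on the log2 scale between E8.5 and E9.5 (adjusted p = 0.000911, edgeR). The 175 bases upstream of its start (GRCm38.p6, chr9:105828161-105828335, minus strand, ending 75 bases short of the RefSeq start) hold GGGCGG 142 bases before the start and its reverse, CCGCCC, 91 bases before, in capitals. They are shown because this gene had the largest rise of any collagen.
Col6a6 promoter: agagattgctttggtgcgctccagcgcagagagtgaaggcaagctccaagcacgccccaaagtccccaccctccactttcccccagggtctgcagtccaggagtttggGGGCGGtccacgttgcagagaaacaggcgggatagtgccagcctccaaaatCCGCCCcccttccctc

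The main type VI chains followed. Col6a1 stood at 4.90, 5.88 and 5.50 CPM for the E8 libraries, 4.16, 5.82 and 5.78 for E8.5, 6.06, 5.81 and 7.27 for E9.5 and 70.6, 68.4 and 67.4 for E14. Col6a2 stood at 9.91, 11.5 and 10.4 CPM for the E8 libraries, 11.8, 13.8 and 10.2 for E8.5, 11.9, 10.3 and 11.5 for E9.5 and 47.3, 53.9 and 51.6 for E14. Col6a3 stood at 0.430, 0.498 and 0.511 CPM for the E8 libraries, 1.22, 2.27 and 0.886 for E8.5, 1.90, 1.45 and 2.48 for E9.5 and 40.8, 47.4 and 41.0 for E14. For each of the 3, every E14 library lay above all earlier ones. From E9.5 to E14 Col6a1 rose by 3.43 ± 0.14, Col6a2 by 2.18 ± 0.11 and Col6a3 by 4.47 ± 0.30 (adjusted p = 7.36e-09, 4.48e-08 and 4.52e-07, edgeR). Col6a3 also rose from E8 to E8.5 (1.60 ± 0.32, adjusted p = 0.0463, edgeR), a call lost under 15 of the 21 alternatives, among them leaving out E8.5 replicate 2, its highest library (1.13, adjusted p = 0.0735). Leaving out E8.5 replicate 1 or any E8, E9.5 or E14 library also ended it (1.52 to 1.71, adjusted p = 0.0504 to 0.217). Col6a4 and Col6a5 were at or under 2.07 CPM and rose by 3.47 ± 0.55 and 4.45 ± 0.52 (adjusted p = 0.000261 and 2.33e-05, edgeR), from 9, 2 and 6 counts in the E9.5 libraries for Col6a4 and 5, 8 and 8 for Col6a5. Of 8 skeletal muscle markers, whose sum was 1.36 to 1.54 CPM at E8 and 501 to 561 at E14, Ckm, which heart muscle also makes, stood at 519.7 ± 30.4 CPM at E14 and Myod1 at 0.105 ± 0.00838 CPM. From E9.5 to E14, edgeR called 3 of the 5 that passed the filter on low counts higher (Ckm, Myh3 and Myog) and 0 lower. The skeletal muscle sum and the fibroblast and epicardial sums given above were higher at E14. Their part in the type VI and fibril-associated changes was not tested.

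Of the 9 fibril-associated collagens, 5 rose and 2 fell from E9.5 to E14, where 25.4% of all genes rose and 24.6% fell. From E8.5 to E9.5, 3 rose and 3 fell, where 18.4% of all genes rose and 18.5% fell. Col12a1, which sits on type I fibrils under tension, stood at 122, 115 and 112 CPM for the E8 libraries, 83.6, 146 and 123 for E8.5, 41.1, 32.4 and 32.5 for E9.5 and 30.4, 34.3 and 32.5 for E14. The E9.5 and E14 libraries overlapped and lay below all earlier ones. Col12a1 fell by 1.73 ± 0.17 on the log2 scale between E8.5 and E9.5 (adjusted p = 6.49e-05, edgeR), the largest fall of that interval among collagens, and from E9.5 to E14 its change of -0.12 ± 0.17 did not pass (adjusted p = 0.569). Col14a1, a close relative, stood at 7.52, 7.44 and 7.69 CPM for the E8 libraries, 7.24, 8.06 and 8.26 for E8.5, 3.64, 3.10 and 3.25 for E9.5 and 84.6, 80.3 and 81.6 for E14. Its lowest stage was E9.5 and its highest E14, with no overlap between those and other stages. Col14a1 fell by 1.24 ± 0.08 and then rose by 4.62 ± 0.09 (adjusted p = 3.87e-06 and 2.14e-11, edgeR). Col22a1, a collagen of tissue junctions such as muscle and tendon, stood at 15.1, 16.5 and 16.9 CPM for the E8 libraries, 15.0, 18.7 and 15.5 for E8.5, 12.3, 8.99 and 8.41 for E9.5 and 0.683, 0.778 and 0.547 for E14. The E14 libraries were all below 1 CPM and far below the others. Col22a1 fell by 3.88 ± 0.18 on the log2 scale between E9.5 and E14 (adjusted p = 2.4e-08, edgeR), while its earlier fall of 0.73 ± 0.15 became 0.33 with length-adjusted offsets and did not pass (adjusted p = 0.0851).

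Type IX chains, which decorate type II fibrils, did not move as 1 unit. Col9a1 stood at 2.16, 2.25 and 2.26 CPM for the E8 libraries, 1.91, 1.76 and 2.505 for E8.5, 6.04, 7.23 and 9.34 for E9.5 and 3.23, 2.99 and 2.74 for E14. Col9a2 stood at 1.97, 2.70 and 2.31 CPM for the E8 libraries, 1.63, 1.50 and 1.16 for E8.5, 2.64, 3.65 and 3.60 for E9.5 and 7.71, 7.15 and 7.26 for E14. Col9a3 stood at 2.28, 2.91 and 2.63 CPM for the E8 libraries, 1.37, 2.02 and 3.11 for E8.5, 1.84, 2.83 and 3.12 for E9.5 and 1.42, 1.83 and 2.01 for E14. Col9a1 was highest at E9.5, above every other library, Col9a2 at E14, and Col9a3 passed no test between stages in the fit of all libraries without a replicate block. For E14 against E8 Col9a3 was lower by 0.57 ± 0.28 on the log2 scale (adjusted p = 0.0984, edgeR), and it passed with the replicate number as a block (-0.59, adjusted p = 0.0178), with only those stages in the fit (-0.60, adjusted p = 0.00698) and without E8.5 replicate 3 (-0.61, adjusted p = 0.0263). Col9a1 rose by 1.87 ± 0.17 and then fell by 1.34 ± 0.17 (log2; adjusted p = 4.83e-05 and 5.08e-05, edgeR), while Col9a2 rose by 1.20 ± 0.17 and 1.16 ± 0.17 (adjusted p = 0.000438 and 0.000127, edgeR). Col9a3 overlaps Tcfl5 on the other strand, which had 0.774 times its count. Col16a1 went from 3.51 ± 1.62 CPM to 30.4 ± 0.674 CPM and rose by 3.11 ± 0.28 (adjusted p = 4.04e-06, edgeR). Col19a1 and Col20a1 stayed at or under 3.11 CPM, both rose in that interval (1.68 ± 0.24 and 0.83 ± 0.17, adjusted p = 0.000112 and 0.00189, edgeR), and Col20a1 overlaps a same-strand transcript, 9230112E08Rik, with 1.39 times its count.

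The 2 multiplexins, basement membrane collagens that carry heparan or chondroitin sulfate chains, moved in opposite directions. Col18a1, the source of endostatin, stood at 396, 431 and 417 CPM for the E8 libraries, 376, 364 and 356 for E8.5, 298, 259 and 257 for E9.5 and 148, 162 and 141 for E14. Its stages did not overlap, each lower than the one before. Col18a1 fell by 0.85 ± 0.09 on the log2 scale between E9.5 and E14 (adjusted p = 7.22e-06, edgeR), while its fall of 0.43 ± 0.09 between E8.5 and E9.5 (adjusted p = 0.00285, edgeR) was 0.15 with length-adjusted offsets (adjusted p = 0.224). Slc19a1 overlaps 7.72% of it on the other strand, with 0.368 times its count. Col15a1, its close relative in vessel and muscle basement membranes, stood at 1.02, 1.17 and 1.13 CPM for the E8 libraries, 1.16, 1.95 and 0.814 for E8.5, 1.55, 0.929 and 1.60 for E9.5 and 31.3, 33.4 and 32.3 for E14. All E14 libraries lay above all others. Col15a1 rose by 4.57 ± 0.28 between E9.5 and E14 (adjusted p = 2.52e-07, edgeR).

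Col7a1, the protein of the anchoring fibrils beneath stratified epithelium, stood at 7.40, 9.01 and 8.74 CPM for the E8 libraries, 6.04, 11.7 and 9.61 for E8.5, 3.92, 3.31 and 3.16 for E9.5 and 0.854, 1.22 and 1.04 for E14. The E8 and E8.5 libraries overlapped, E9.5 was below them and E14 below E9.5. Col7a1 fell by 1.40 ± 0.21 and 1.72 ± 0.23 on the log2 scale in the last 2 intervals (adjusted p = 0.000604 and 6.4e-05, edgeR). Markers of surface epithelium, 8 of 8 detected, summed to 267 to 289 CPM at E8, 177 to 413 and 106 to 137 in the next 2 stages, and 11.2 to 15.0 at E14, with Krt8 at 161 ± 7.49 CPM at E8 and 3.53 ± 0.602 CPM at E14. For E14 against E8, edgeR called 5 lower and 3 higher, and the higher ones were Trp63, Krt5 and Krt14, markers of stratified epithelium. Krt5 went from 0.0266 ± 0.0111 CPM to 0.327 ± 0.161 CPM, and Krt14 from 0.0255 ± 0.0167 CPM to 0.578 ± 0.0589 CPM. Their part was not tested.

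The short-chain collagens of type VIII, found under endothelium and in valves, were rare. Col8a2 stood at 0.286, 0.386 and 0.479 CPM for the E8 libraries, 0.374, 0.675 and 0.226 for E8.5, 1.13, 2.02 and 3.11 for E9.5 and 9.55, 8.13 and 8.61 for E14. Col8a1 stood at 3.50, 2.59 and 2.86 CPM for the E8 libraries, 3.55, 4.47 and 1.60 for E8.5, 3.90, 5.92 and 6.69 for E9.5 and 7.80, 7.16 and 7.63 for E14. Col8a2 did not overlap between E8.5, E9.5 and E14, while the E9.5 and E14 values of Col8a1 lay close together. Col8a2 rose by 2.30 ± 0.40 from E8.5 to E9.5 and by 2.07 ± 0.37 between E9.5 and E14 (adjusted p = 0.00147 and 0.000733, edgeR), the first being the largest rise of that interval among collagens. Col10a1 lies wholly inside Nt5dc1, which is on the other strand and had 24.0 times its count, so its values of 0.670 to 2.48 CPM are uncertain.

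Of the 4 transmembrane collagens, 3 rose from E9.5 to E14 (Col17a1, Col23a1 and Col25a1), and 2 fell from E8.5 to E9.5 (Col13a1 and Col23a1). Of all genes, 25.4% rose from E9.5 to E14, and 18.5% fell from E8.5 to E9.5. Col25a1, known from motor innervation of muscle, went from 6.79 ± 2.04 CPM to 21.8 ± 4.65 CPM and rose by 1.68 ± 0.25 (adjusted p = 0.000188, edgeR). Col17a1, a hemidesmosome collagen, stayed at or under 1.38 CPM. Col13a1, found at cell-matrix junctions, went from 36.4 ± 6.56 CPM to 22.7 ± 2.73 CPM and fell by 0.68 ± 0.12 (log2; adjusted p = 0.00119, edgeR). The fall of Col23a1 between E8.5 and E9.5 (-0.38 ± 0.14, adjusted p = 0.0489, edgeR) became 0.0305 with length-adjusted offsets and was lost under 12 other settings, among them leaving out any E8 library, E8.5 or E9.5 replicate 2 or 3, or E14 replicate 3 (adjusted p = 0.0584 to 0.167), and its rise to E14 (0.56 ± 0.14) was 0.14 with those offsets (adjusted p = 0.294). Of the remaining 2, Col28a1 rose from E9.5 to E14 by 2.34 ± 0.41 (adjusted p = 0.000547, edgeR) and Col26a1 changed by 0.55 ± 0.24, which did not pass (adjusted p = 0.0851).

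Chains of 1 molecule, or of close relatives, were compared within each library as the log2 ratio of their counts, which library scaling cannot move. Over 15 pairs, an exact permutation F-test of the 4 stages, two-sided by construction, gave an adjusted p under 0.05 for 12 (Benjamini-Hochberg over the 15). Ratios compare gene counts, not molecules, since chain lengths differ, and only their shift between stages is read. The Col5a1 to Col5a2 ratio was 2.01 ± 0.03, 1.66 ± 0.23, 0.08 ± 0.33 and -0.93 ± 0.15 from the earliest stage to the latest (mean log2 ± SD, n = 3; exact permutation p = 6.49e-05, adjusted p = 0.000779, the smallest raw p this design can give). Col5a1 thus had 4.02 times the counts of Col5a2 at E8 and 0.525 times at E14. The Col3a1 to Col1a1 ratio was 0.69 ± 0.02, 0.37 ± 0.27, 1.78 ± 0.43 and 2.43 ± 0.22 in stage order (exact permutation p = 0.000195, adjusted p = 0.000779), so the counts of Col3a1 moved away from those of Col1a1 after E8.5. Col1a1 to Col1a2 was -1.43 ± 0.03, -0.69 ± 0.56, -0.38 ± 0.17 and -0.95 ± 0.21 (exact permutation p = 0.0214, adjusted p = 0.0267), with E8.5 replicate 3 at -1.33 against -0.35 and -0.38 in the others. That call was lost when any 1 of the E8 libraries or E9.5 replicate 1 or 3 was left out (exact permutation adjusted p = 0.0662 to 0.0778).

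Among the type IV chains, the Col4a5 to Col4a6 ratio was 0.66 ± 0.05, 0.58 ± 0.16, 1.22 ± 0.17 and 1.83 ± 0.05 (exact permutation p = 0.000325, adjusted p = 0.000812), highest at E14. Col4a1 to Col4a2 was 1.08 ± 0.06, 0.87 ± 0.19, 1.13 ± 0.06 and 0.99 ± 0.11 and did not pass (exact permutation p = 0.0824, adjusted p = 0.0951), though it passed without E8.5 replicate 3 (exact permutation adjusted p = 0.0237). Col4a3 to Col4a4 did not pass either (exact permutation p = 0.194, adjusted p = 0.198), but did without E8.5 replicate 1 (exact permutation adjusted p = 0.0198), and Col5a3 to Col5a1 (exact permutation p = 0.198, adjusted p = 0.198) did without E8.5 replicate 3 (exact permutation adjusted p = 0.0424). For type VI, Col6a1 to Col6a2 went from -0.97 ± 0.05 at E8 to 0.44 ± 0.13 at E14 (exact permutation p = 0.00338, adjusted p = 0.0046) and Col6a3 to Col6a1 from -3.50 ± 0.07 to -0.68 ± 0.14 (exact permutation p = 0.000519, adjusted p = 0.0011). Col8a1 to Col8a2 went from 2.98 ± 0.55 to -0.22 ± 0.07 (exact permutation p = 0.000584, adjusted p = 0.0011). Col4a5 to Col4a1 went from -2.52 ± 0.09 to -1.60 ± 0.04 (exact permutation p = 0.00227, adjusted p = 0.00379), Col9a3 to Col9a2 from 0.17 ± 0.05 to -2.09 ± 0.31 (exact permutation p = 0.00266, adjusted p = 0.00399), and Col11a1 to Col5a1 from -5.09 ± 0.00 to -3.02 ± 0.11 (exact permutation p = 0.00026, adjusted p = 0.000779). Col9a1 to Col9a2 was 1.19 ± 0.20 at E9.5 and -1.31 ± 0.09 at E14 (exact permutation p = 0.00026, adjusted p = 0.000779), and Col11a1 to Col11a2 went from 2.04 ± 0.14 at E8 to 3.65 ± 0.01 at E14 (exact permutation p = 0.00026, adjusted p = 0.000779).

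**Figure D4:**
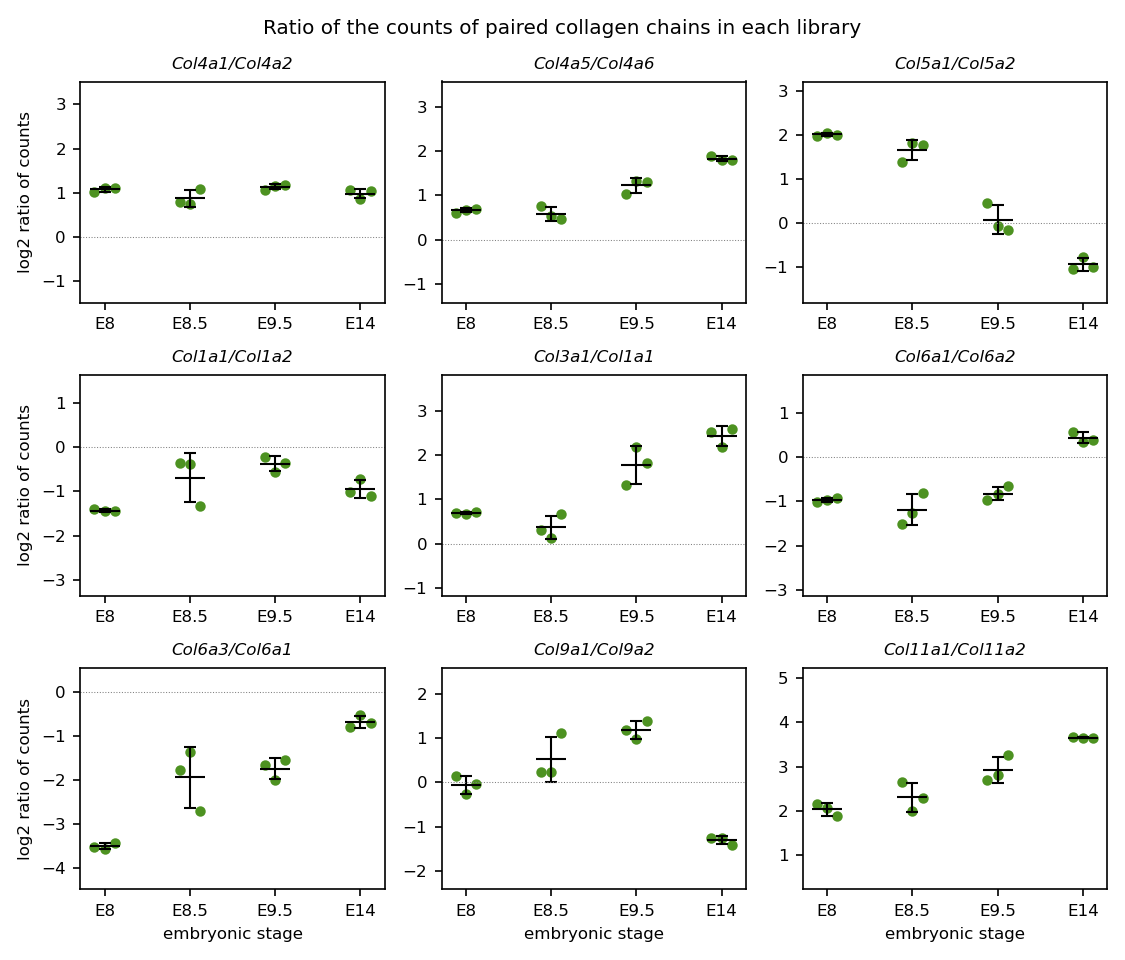
Log2 ratio of the counts of 2 chains (vertical axis) in each library by stage, for 9 of the 15 pairs; points are libraries and the bar is the mean ± SD of 3. Col5a1 to Col5a2 goes from 2.01 at E8 to -0.93 at E14, and Col4a1 to Col4a2 stays near 1.

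RefSeq promoter windows were matched by symbol for 35 of the 44 genes (38 windows). Within the 250 bases before each start, searched on both strands, TATAAA stood in 13.2% of the collagen windows and in 12.4% of all 32851 windows. CCAAT stood in 34.2% against 33.8%, and GGGCGG in 57.9% against 32.7%. None of the 3 motifs contains another. These shares are a description of letters, with no test.

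Genes that fold, cut, cross-link or bind collagen were followed in 3 lists. For E14 against E8, 31.5% of all genes tested were higher and 29.2% lower, and their median was 0.04. In that comparison, 8 of 20 folding genes were higher and 7 lower (median -0.01). Of 13 propeptide and cross-linking genes, 9 were higher and 3 lower (median 1.30). Of 10 receptor genes, 6 were higher and 1 lower (median 0.61). Of 20 genes for chain folding and modification, none passed from E8 to E8.5 (5 in edgeR without adjustment, at p under 0.05, and 1, P3h2, called by DESeq2), 5 rose and 2 fell from E8.5 to E9.5, and 8 rose and 2 fell from E9.5 to E14. These counts, 7 and 10 of 20, were at the shares of all genes called in the same intervals, 37.0% and 50.0%. P4ha3, a prolyl hydroxylase chain, went from 1.54 ± 0.497 CPM to 9.005 ± 0.743 CPM and rose by 2.54 ± 0.25 (adjusted p = 6.53e-06, edgeR). P3h3 rose by 0.88 ± 0.14 and 1.42 ± 0.14 in the last 2 intervals (adjusted p = 0.000701 and 4.88e-06, edgeR). Crtap, a partner of prolyl 3-hydroxylase, rose by 1.05 ± 0.11 between E9.5 and E14 (adjusted p = 8.13e-06, edgeR). P3h2, which modifies type IV chains, fell by 1.56 ± 0.22 on the log2 scale between E8.5 and E9.5 (adjusted p = 0.000433, edgeR).

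Of 13 genes for propeptide removal and cross-linking, none passed from E8 to E8.5 (3 in edgeR without adjustment, at p under 0.05, and 2 called by DESeq2), 4 rose and 2 fell from E8.5 to E9.5, and 8 rose and 1 fell from E9.5 to E14. Over all genes, 18.4% rose and 18.5% fell in the first of these intervals, and 25.4% rose and 24.6% fell in the second. Lox, the copper enzyme that starts cross-links in fibrils, stood at 1.04, 0.612 and 1.21 CPM at E9.5 and 19.9, 20.2 and 17.2 CPM at E14. It rose by 4.33 ± 0.49 (adjusted p = 2.82e-05, edgeR), with no overlap between these stages. Pcolce, an enhancer of propeptide removal, rose by 1.93 ± 0.20 between E8.5 and E9.5 (adjusted p = 8.25e-05, edgeR), while its relative Pcolce2 fell by 3.01 ± 0.21 on the log2 scale between E9.5 and E14 (adjusted p = 4.44e-07, edgeR). Adamts3, a procollagen N-proteinase, fell by 0.91 ± 0.10, and Tll1 rose by 0.76 ± 0.20, between E8.5 and E9.5 (adjusted p = 0.000126 and 0.0111, edgeR). Tll2 rose by 2.26 ± 0.25 between E9.5 and E14 (adjusted p = 1.3e-05, edgeR).

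Of 10 collagen receptor genes, none passed from E8 to E8.5 (none in edgeR without adjustment, at p under 0.05, and none by DESeq2), 4 rose from E8.5 to E9.5, where 18.4% of all genes rose and 37.0% were called in either direction, and 6 rose and 1 fell from E9.5 to E14, beside 25.4% and 24.6% of all genes. Ddr2, a receptor tyrosine kinase for fibrillar collagens that is also on the fibroblast list, rose by 1.55 ± 0.25 and 1.21 ± 0.24 (adjusted p = 0.000961 and 0.00152, edgeR). Itga2 and Itga1, integrin chains that bind collagen, rose by 3.17 ± 0.17 and 1.35 ± 0.12 between E9.5 and E14 (adjusted p = 4.98e-08 and 2.8e-06, edgeR). Calls for Ddr1 (0.69 ± 0.22), Mrc2 (0.37 ± 0.13) and P4ha3 (0.72 ± 0.25) between E8.5 and E9.5 (adjusted p = 0.0296, 0.04 and 0.0423, edgeR) were lost when E9.5 replicate 3 was left out (0.52, 0.26 and 0.47, adjusted p = 0.122, 0.177 and 0.199). Each was also lost without E9.5 replicate 2 or E8.5 replicate 1, Ddr1 without E8.5 replicate 3, Mrc2 without any 1 of the E8 libraries, and P4ha3 without E8 replicate 1 or 3, E8.5 replicate 2 or E14 replicate 2 or 3 (adjusted p = 0.0505 to 0.134).

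**Figure D5:**
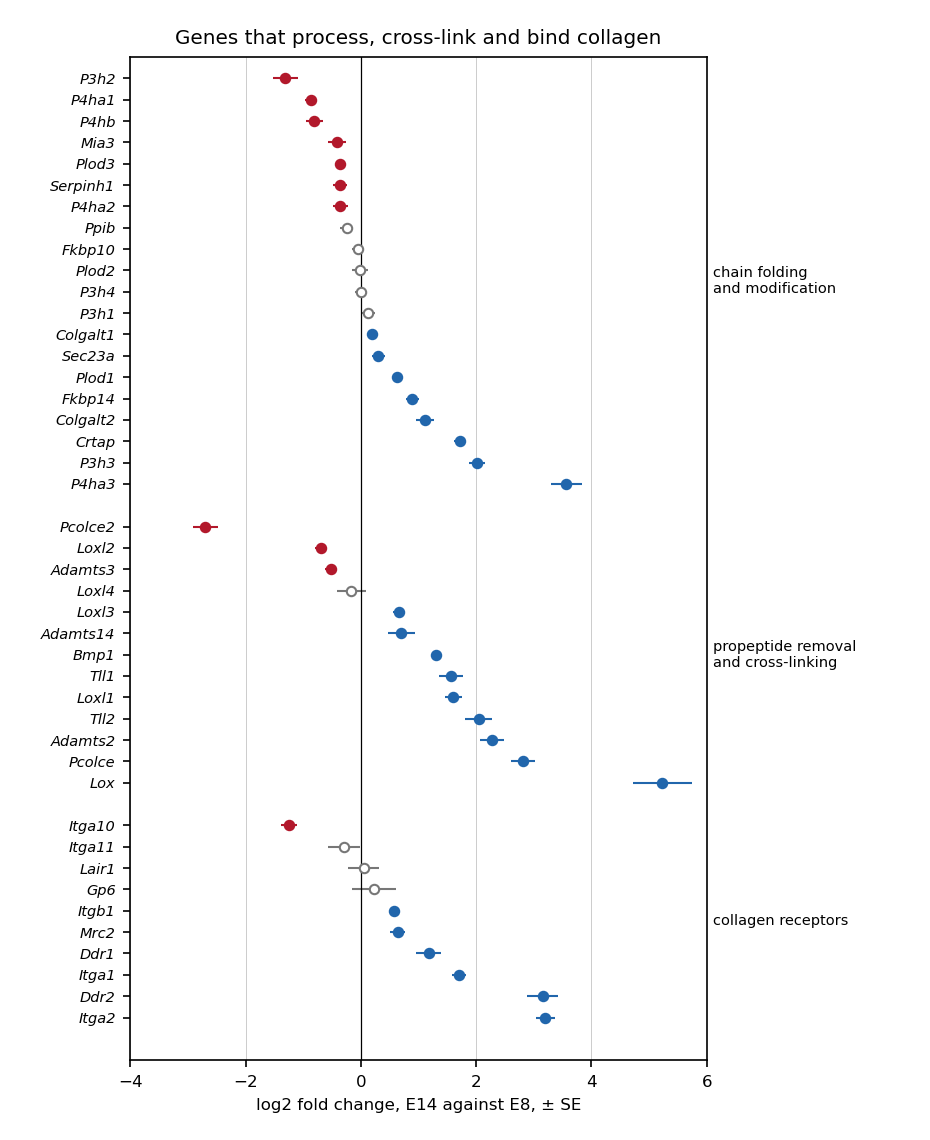
Log2 fold change from E8 to E14 (horizontal axis, with its standard error) of 43 genes in 3 lists: chain folding and modification, propeptide removal and cross-linking, and collagen receptors. Blue points passed as higher, red as lower, and open grey points did not pass. The 3 lists hold 8, 9 and 6 blue points and 7, 3 and 1 red ones.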

How the data were processed

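Total RNA-seq libraries of 12 dissected cardiogenic regions (4 stages, 3 each) were used. Per the submitters' processing notes, the tools and builds named are STAR 2.5.0, Cufflinks 2.2.1, GRCm38, mm10 and hg38, with no role given for each. How reads were counted, on which strand and with which annotation is not given in the sources used here. The authors' deposited table holds raw counts per gene interval. Of its 48709 intervals, 42778 were identical to a GENCODE M21 (GRCm38) gene interval. Where 1 interval encloses another, the outer interval's count was no lower than the inner one's in any library for 99.7% of 3994 same-strand and 98.7% of 3852 opposite-strand pairs.

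Counts were scaled by TMM and tested with edgeR 4.0.16 (limma 3.58.1, R 4.3.3): genes passing filterByExpr (28846), 1 factor of 4 stages with a robust quasi-likelihood fit over all 12 libraries, and Benjamini-Hochberg adjusted p under 0.05. Standard errors are the absolute log2 fold change over the root of F. Chain ratios used every assignment of the libraries to stages (369600) for an exact permutation F-test. Figures and sums used matplotlib 3.10.9 and pandas 2.3.3 under Python 3.11.15, with scipy 1.17.1 and numpy 2.4.6. The scripts were tested on simulated data. DESeq2 1.42.0, other scaling, filters, offsets adjusted for interval length (lowess span 0.3), a replicate block and leaving out each library were alternatives. Libraries of 1 stage differed by more than counting noise. Depth was 56574386 to 122785175 counts per library. The rarest member, Col6a4, had 2 to 9 counts in the E9.5 libraries, where counting error limits precision.

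The members and all lists were chosen with earlier results of these data known. Values per library are given for the 12 collagens with the highest mean, the 3 largest rises and falls among those called in each neighbouring interval, and both chains of the pairs. Others are given by range. From each pathway list, the 3 called genes with the largest change per interval are given. Exon lengths come from GENCODE M21 and promoters from RefSeq GRCm38.p6.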

Additional observations from a re-analysis of the deposited data

How the results depend on the processing

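Across the alternatives, 31 of 34 calls from E9.5 to E14, 33 of 38 for E14 against E8, 18 of 24 for E9.5 against E8, 14 of 22 from E8.5 to E9.5 and 0 of the 2 from E8 to E8.5 were kept under every setting. The calls lost under at least 1 setting were Col4a1, Col4a5 and Col23a1 from E9.5 to E14, and Col1a2, Col4a1, Col4a6, Col16a1, Col18a1, Col22a1, Col23a1 and Col24a1 from E8.5 to E9.5. They were Col4a6, Col10a1, Col17a1, Col23a1 and Col26a1 for E14 against E8, and Col1a2, Col4a5, Col9a2, Col13a1, Col16a1 and Col27a1 for E9.5 against E8. Calls were also gained under at least 1 setting: by 5 collagens from E9.5 to E14 (Col4a6, Col5a1, Col9a3, Col13a1 and Col26a1), by 2 for E14 against E8 (Col9a1 and Col9a3), by 5 for E9.5 against E8 (Col4a6, Col8a1, Col11a1, Col11a2 and Col24a1), by 13 from E8.5 to E9.5 and by 11 from E8 to E8.5. The number of collagens called from E8 to E8.5 was 2 in edgeR, 1 with RLE factors and 1 with upper-quartile factors. It was 6 (5 higher and 1 lower) with a filter of 1 CPM in 3 libraries, and 8 (7 higher and 1 lower) with DESeq2. Over all genes, the calls in this order were 341, 271 and 266 of 28846, 1564 of 19800 and 4351 of 24297. The collagen number was 0 in edgeR with no filter (14 at an unadjusted p under 0.05). It was also 0 with length-adjusted offsets (14, of which 4 were higher and 10 lower) and with only the stages compared in the fit (11). In those settings 190 of 47041, 178 of 28846 and 9 of 27218 genes were called (8832, 6732 and 5794 at an unadjusted p under 0.05). Leaving out 1 library gave 0 to 10 collagens (8 to 21 at an unadjusted p under 0.05), beside 0 to 8865 of all genes. The 10 were reached without E8.5 replicate 3, and the cause was not tested.

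With the replicate number as a block, edgeR called 0 collagens from E8 to E8.5 (12 at an unadjusted p under 0.05). It called 23 from E8.5 to E9.5, 35 from E9.5 to E14, 24 for E9.5 against E8 and 40 for E14 against E8. For the 4 stages it called 41, and 12 chain ratios passed. Of 28846 genes, 3, 9863, 13974, 6525, 17102 and 20125 were called in the same order of comparisons. Over 18 same-numbered pairs of libraries, deviations correlated between -0.0836 and 0.134, and 1 exceeded 0.1. Pairs with different numbers ranged from -0.173 to 0.19. These values cannot tell whether libraries of equal number shared a litter or a run, since no label gives either.

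Some directions reversed. With length-adjusted offsets, Col5a1 from E9.5 to E14 went from 0.25 to -0.0126, and Col4a2 for E14 against E8 from 0.07 to -0.14. Neither had been called. Col23a1 from E8.5 to E9.5, called as a fall with TMM scaling (-0.38), became 0.0305 with those offsets. Leaving out 1 library gave -0.0856 to 0.00763 for Col4a1 in E14 against E8 (positive without E8 replicate 2), -0.0279 to 0.0863 for Col4a2 in that comparison (negative without E14 replicate 2), and -0.0863 to 0.0088 for Col4a6 from E9.5 to E14 (positive without E9.5 replicate 1). Scaling by total counts gave E14 over E8 log2 ratios of 1.05 for fibrillar, -0.0306 for type IV, 3.53 for type VI, -0.0436 for FACIT, -1.33 for multiplexin and 0.60 for the 2 other genes, against 1.19, 0.11, 3.67, 0.10, -1.18 and 0.74. The causes were not tested. Low counts limit Col6a4, Col6a5 and Col5a3.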
